A study of Mus musculus with 5 samples.

Results

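The change in guide RNA abundance between day 8 and day 5 of a pooled CRISPR screen was described, which is the middle interval between the sampled times. The members were all guides with at least 30 reads in both libraries of the plasmid pool, 15336 of 17820 guides in the series. They comprised 14443 guides to 1682 genes, 4 to 10 per gene with a median of 9, and 893 of the 1000 guides named as non-targeting. The members were chosen by plasmid reads alone, so neither day 5 nor day 8 entered the choice.

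The screen was run in mouse embryonic stem (ES) cells with the genotype label Ainv15(iNgn2 Tubb3::GFP), the same in both groups. All transduced cells had received the lentiviral guide library against transcription factors and chromatin regulators and were kept in ES cell medium with Zeocin. The day 5 group is 1 library and the day 8 group is 1 library, and the series also holds 2 libraries of the plasmid pool and 1 library of cells at day 12. The labels for treatment read No treatment in both. The titles give days after transduction while the protocol text dates the earliest sample from the start of selection, so the days are used as names. Whether the cells at day 8 descend from the same wells as those at day 5 is not given in the sources used here. With 1 library a side the difference has no replicate check, and no p-value is given anywhere.

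In a pooled screen each cell carries a guide RNA that directs the nuclease Cas9 to a gene, and repair of the cut often disrupts that gene. Guides that slow division or kill the cell lose their share of the pool, and guides that favour growth gain. Loss can lag behind cutting, because the protein already made has to be diluted or degraded first. Non-targeting guides match no site in the genome and show how the pool moves without a targeted cut. Fewer cells carrying a guide and fewer reads per cell cannot be told apart in such counts.

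The guides of 4 genes are shown: Max and Rarg because they had the lowest and the highest median, Ttf2 because its loss went on to day 12, and Pou5f1 for its role in ES cells. Each sequence is the guide as listed in the deposited files, 5′ to 3′, with the 12 bases at its 3′ end in capitals, the end that lies next to the PAM and pairs first with the target. Guides are numbered by their order among the 10 of a gene, and missing numbers did not reach the read minimum. Max codes for the obligate partner of the MYC proteins (chromosome 12, 76937269 to 76962323, mm10, as for all gene positions given here).
Max guide 1: tgtgaaagCTGTCTTTGATG
Max guide 2: caggaagaAACTCCGGATGG
Max guide 3: gagcaggaAGAAACTCCGGA
Max guide 4: atgcactgGAACGAAAACGT
Max guide 5: agtatatcCAGTATATGCGA
Max guide 6: aagacattGATGACCTCAAG
Max guide 7: gaagagcaTTCTGCCGCTTG
Max guide 9: gcgggctcACCATAATGCAC
Max guide 10: atcttgccTTCTCCAGTGCA

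Ttf2 codes for a transcription termination factor that releases RNA polymerase II (chromosome 3, 100938860 to 100969700).
Ttf2 guide 1: gttggactTAACCTGACTGG
Ttf2 guide 2: gcatgtccAGAAGGAAAAGG
Ttf2 guide 4: gtccaacaCCGCCAGCCAAG
Ttf2 guide 5: tgtgaccgGATTTACCGAGT
Ttf2 guide 6: ctgatctcCCTCTTGGCTGG
Ttf2 guide 7: cgatggtgGCGTAAGTCAGT
Ttf2 guide 8: agtgcatgTCCAGAAGGAAA
Ttf2 guide 10: acagagaaTGGACCTGGTGG

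Pou5f1 codes for OCT4, the central pluripotency factor (chromosome 17, 35506032 to 35510777). It had 5 guides with enough plasmid reads.
Pou5f1 guide 1: ccgcccgcATACGAGTTCTG
Pou5f1 guide 3: ttaagaacATGTGTAAGCTG
Pou5f1 guide 4: gatcacctTGGGGTACACCC
Pou5f1 guide 5: gaagcagaAGAGGATCACCT
Pou5f1 guide 6: gtgtaagcTGCGGCCCCTGC

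Rarg codes for a nuclear receptor for retinoic acid (chromosome 15, 102234938 to 102257522). Its guides had the highest median of all genes in this interval, and it was picked after the values were seen.
Rarg guide 1: ccttagtgCTGATGCCCCGG
Rarg guide 2: gcccggcaAAGGCAAAGACG
Rarg guide 3: agattgtgGAGTTTGCGAAG
Rarg guide 4: gccaacccTACATGTTCCCA
Rarg guide 5: tgaggctcTATGCCCGGCGA
Rarg guide 6: atgctgagCCCTGTAAAACC
Rarg guide 7: tacaaggtATACCCCAGAGC
Rarg guide 9: agtgctgaTGCCCCGGAGGT
Rarg guide 10: cgaccagaTCACGCTGCTCA

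The libraries had 1063071 reads at day 5 and 1082489 at day 8, and the members had a median of 53 reads in each. Reads were scaled by the library total to CPM, the usual common unit of depth, and each guide's change is the log2 ratio of its CPM plus 1 at day 8 to that at day 5. The non-targeting guides had a median of 0.11, and all changes below are relative log2 changes, from which this median has been subtracted. The change of a gene is the median over its guides, given with the SD over those guides. A gene is said to have fallen when its relative log2 change is -1 or lower, which is 2-fold, and to have risen when it is 1 or higher.

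The middle interval was one of losses. Of 1682 genes 60 fell, or 3.57%, and 0 rose, or 0%. At a smaller fold, 1.5-fold, 192 genes (11.4%) were lower and 2 (0.119%) higher. With a pseudocount of 5 in place of 1, which pulls guides with few reads toward 0, the 2-fold count was 26. With the CPM of a gene's guides summed, 36 of the 60 were past 2-fold, and with a minimum of 100 plasmid reads 31 of the 54 that could be measured. Under all alternative settings run for them, 14 of the 60 genes stayed past 2-fold: Max, Ttf2, Pou5f1, Srsf1, Kmt2b, Xrcc3, Hnrnpk, Ankrd49, Nelfcd, Nsmce3, Sfpq, Smarcc1, Snapc1 and Zbtb11. Of these Hnrnpk could not be measured with the minimum of 100 plasmid reads, because none of its guides reached it. The number of genes below the non-targeting median was 1292 and the number above was 388, and 1446 lay within 0.5 of it. Across all genes the median relative log2 change was -0.13. The genes nearest to the 2-fold line were Atm (-1.0004), Gtf2h2 (-1.01), Trim28 (-1.02) and Mcm5 (-1.02) inside it. Eaf1 (-0.99), Aatf (-0.98), Mcm3 (-0.98) and Timeless (-0.98) lay just outside.

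Single guides showed the same one-sidedness. Of 14443 guides to genes 1136 (7.87%) were 2-fold or more below the non-targeting median and 111 (0.769%) as far above it. Of the 893 non-targeting guides 5 (0.560%) were that far below and 9 (1.01%) that far above. The guides to genes thus had a larger share in the low tail and no larger share in the high tail than the controls. The SD over non-targeting guides was 0.37, whereas counting error at their depth gives a median of 0.24. The controls thus spread more widely than counting error alone, which is all that the intervals below cover. Between the libraries 48 guides to genes (0.332%) went from at least 1 read to 0. No non-targeting guide did, but 0 of 893 allows a share of up to 0.336%, so no difference was detectable. The controls also had more reads, a median of 70 against 52 at day 5.

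Guides to Max fell furthest by the median over guides. Their reads summed to 290, 96 and 65 in the day 5, day 8 and day 12 libraries, against 1825 and 690 in the plasmid libraries. The relative log2 change from day 5 to day 8 was -1.99 (SD 1.32, 9 guides), which leaves 25.2% of the share at day 5. The change of the summed reads was -1.74, with an exact 95% Clopper-Pearson interval of -2.09 to -1.40. Reads went from 52 to 5 for guide 1, from 34 to 4 for guide 4 and from 86 to 13 for guide 7. Guide 6 went from 7 reads to 0 and guide 5 from 39 to 10. Guide 10 went from 15 to 6, so that 6 of the 9 guides were past 2-fold. Guide 2 (26 to 32 reads), guide 3 (15 to 12) and guide 9 (16 to 14) were within it. Guides 2 and 3 share 17 bases and so point to nearly the same place in the gene. At day 12 guide 9 had 25 reads and guide 4 had none. The order of Max and Ttf2 depended on the measure. Ttf2 was lower by summed reads (-2.04 against -1.74) and with a pseudocount of 5 (-1.46 against -1.31). Max was lower with a minimum of 100 plasmid reads (-2.84 against -2.45). That minimum left guides 1, 4, 5 and 7 of Max, and only guides 2 (-1.78) and 10 (-3.12) of Ttf2.

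Guides to Ttf2 had 276 summed reads at day 5 and 74 at day 8, and 9 were left at day 12. The relative log2 change was -1.66 (SD 0.88, 8 of 8 guides below the non-targeting median), and 7 of the 8 guides were past 2-fold. The summed reads gave -2.04 with an exact 95% interval of -2.44 to -1.67. Guide 10 went from 71 reads to 8, guide 5 from 22 to 2 and guide 2 from 65 to 20. The loss was thus spread over nearly all guides, unlike that of Max. The smallest change was that of guide 4, from 8 reads to 5. Guides 2 and 8, which share 17 bases, changed by -1.78 and -1.52.

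For Pou5f1 the summed reads went from 137 at day 5 to 52 at day 8 and then to 65 at day 12. The relative log2 change was -1.58 (SD 0.97, 5 of 5 guides below), with an exact 95% interval of -2.03 to -1.07 for the summed reads. Guide 4 went from 26 reads to 3, guide 5 from 37 to 9 and guide 6 from 21 to 7, whereas guide 1 (41 to 23) and guide 3 (12 to 10) changed less. At day 12 guide 4 stood at 18 reads, above its 3 reads at day 8.

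Max and Ttf2 were among the 12 lowest genes with at least 6 guides, 100 reads at day 5 and 80% of guides below the non-targeting median. The others came from several parts of nuclear biology. Srsf1, an SR protein of splicing, stood at -1.78 (SD 0.99, 8 of 8 guides below; 269 reads at day 5 and 108 at day 8). Kmt2b, a histone H3 lysine 4 methyltransferase, stood at -1.70 (SD 1.19, 7 of 8 guides below; 261 and 128 reads). Xrcc3, a gene of homologous recombination, stood at -1.61 (SD 0.69, 7 of 7 guides below; 352 and 132 reads). Ruvbl2, an AAA+ ATPase shared by several remodelling complexes, had -1.59 with 10 of 10 guides below, on 145 and 67 reads, but 0.0019 with a minimum of 100 plasmid reads, which left 1 guide. The deadenylase subunit gene Cnot2 had -1.55 with 8 of 8 guides below, and Hdac3, the deacetylase of the NCoR corepressor complex, had -1.46 with 8 of 8. Ddb1, the adaptor of CUL4 ubiquitin ligases, had -1.45 with 9 of 9 guides below. The list of the 12 lowest closes with the PRC1 ubiquitin ligase Rnf2 (-1.34), the splicing cofactor gene Rbm39 (-1.32) and the iron-sulphur protein assembly gene Mms19 (-1.32). With a minimum of 100 plasmid reads, which leaves 1 to 3 guides of each, Cnot2 stood at -0.82, Ddb1 at -0.86, Rnf2 at -0.82, Rbm39 at -0.61 and Mms19 at -0.86. With the guides' CPM summed, Hdac3 stood at -0.84. Guides to Hnrnpk (-1.88, 93 reads at day 5), Med20 (-1.60, 84 reads) and Cbx3 (-1.41) also fell, each with 5 guides kept. Of these Cbx3 stood at -0.37 with a minimum of 100 plasmid reads, and its summed reads gave -0.54 where the median over guides gave -1.41.

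Transcription initiation needs RNA polymerase II, the general factors that place it on a promoter, and Mediator. Over all 1682 genes 3.57% fell and 76.8% were below the non-targeting median. The counts for lists here and below stand beside these shares. Of 11 measured polymerase II subunit genes 2 fell, Polr2c (-1.20) and Polr2j (-1.06), and all 11 were below the non-targeting median, with a list median of -0.56. Polr2d (-0.21) was the highest. Of 16 general initiation factor genes 4 fell, namely Gtf2a1 (-1.18) and Gtf2a2 (-1.04) of TFIIA and Ercc2 (-1.04) and Gtf2h2 (-1.01) of TFIIH. Ercc2 stood at -0.48 with a minimum of 100 plasmid reads, and Polr2c at -0.76 with a pseudocount of 5. The list median was -0.78, with 15 of 16 below, and Gtf2a1l (0.04) was the highest. In TFIID and related complexes 2 of 11 TAF genes fell, Taf11 (-1.10) and Taf5 (-1.03), and the list median was -0.68; Taf15 (-0.13) was the highest. Of 17 Mediator genes 1 fell, Med20, and the list median was -0.49, with Med13 highest at 0.23. Dr1, which codes for a repressor that binds TBP, fell by 1.14 on the relative log2 scale, and Sub1, a coactivator gene, by 1.22; both are in none of the fixed lists and were picked after their values were seen.

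Of 26 elongation and termination factor genes 3 fell: Ttf2, Ell and Nelfcd, with a list median of -0.36 and Aff1 highest at 0.13. Guides to Ell, an elongation factor that suppresses pausing of the polymerase, stood at -1.29 (SD 0.40, 9 of 9 guides below), or -0.97 with a pseudocount of 5. Reads summed to 307 at day 5 and 146 at day 8, with 167 at day 12.

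The NELF complex holds polymerase II in the paused state, and its 4 subunit genes were below the non-targeting median, as were 76.8% of all genes. Nelfcd (492 reads at day 5 and 249 at day 8) changed by -1.20 (SD 0.74, 8 of 8 guides below). Nelfb changed by -0.79, Nelfe by -0.52 and Nelfa by -0.45, none of them past 2-fold; these 3 were picked after their values were seen. Nelfcd changed by -0.03 from day 8 to day 12, and Nelfb by -0.94.

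Polymerases I and III make ribosomal and transfer RNA. Of 24 genes in that list 6 fell and all 24 were below the non-targeting median, beside 3.57% and 76.8% of all genes. The list median was -0.58. Among them were the TFIIIC subunit gene Gtf3c3 (-1.19), Polr1b (-1.16), Taf1c of the selectivity factor SL1 (-1.12), the shared subunit gene Polr1c (-1.12) and Gtf3a, which codes for TFIIIA (-1.08). The highest was Bdp1 (-0.07). In the list of SNAPc, which activates small nuclear RNA genes, and Integrator, 2 of 6 genes fell, Snapc5 (-1.35, with 7 of 10 guides below) and Snapc1 (-1.21). The list median was -0.69, and Ints12 was the highest. With summed CPM Snapc5 stood at -0.71, Taf1c at -0.66, Polr1c at -0.68 and Gtf3a at -0.71. Pdcd11 (-1.26) and Mybbp1a (-1.12), nucleolar genes outside the fixed lists picked after their values were seen, fell as well.

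Splicing and messenger RNA decay held some of the deepest losses. Of 14 splicing genes 5 fell, Hnrnpk, Srsf1, Rbm39, the SR protein gene Srsf3 (-1.28, or -0.76 with a pseudocount of 5) and the paraspeckle protein gene Sfpq (-1.28), and the list median was -0.60, or -0.29 with a minimum of 100 plasmid reads. The same list held Srsf6, the gene with the third highest median of all (0.58), so its members did not move together. In the CCR4-NOT deadenylase Cnot2 and Cnot3 (-1.17) fell, 2 of 7, with a list median of -0.44. All 7 were below the non-targeting median, as were 76.8% of all genes. Ddx5, an RNA helicase gene picked after its values were seen, changed by -1.04.

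The MCM proteins form the helicase that opens replication origins. All 8 MCM genes measured were below the non-targeting median, as were 76.8% of all genes. Their list had the lowest median of the 32 lists in this interval, -0.97. It was close to the 2-fold line: Mcm9 (-1.28) and Mcm5 (-1.02) fell, and Mcm3 (-0.98), Mcm4 (-0.97) and Mcm7 (-0.96) lay just short of it. Mcm6 was the highest at -0.28. With a minimum of 100 plasmid reads the list median was -0.61, with Mcm9 at -0.74 and Mcm5 at -0.48. From the plasmid pool to day 5 the MCM list median was -1.35. Some other lists lay lower there, among them polymerase II subunits (-2.03) and splicing factors (-1.58), so the rank holds for the middle interval only. Mcm9 takes part in homologous recombination rather than in origin firing, so the list is not of a single function.

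Some of the genes that fell code for proteins known from DNA repair. No list of such genes was fixed, and apart from Xrcc3, Ddb1, Mms19 and Mcm9 they were picked after their values were seen. Bard1, which codes for the partner of BRCA1, changed by -1.04. Nsmce3 of the SMC5/6 complex changed by -1.20 (10 of 10 guides below; 553 reads at day 5 and 255 at day 8). Atm, the kinase gene that signals double-strand breaks, changed by -1.0004 (SD 0.40, 9 of 9 guides below). Its reads summed to 494 at day 5, then 279 and 139. Atm had the shallowest first interval of the 60 genes that fell, -0.38 from plasmid to day 5, and changed by -0.70 from day 8 to day 12.

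In each of the chromatin lists at most 2 genes fell, beside 3.57% of all genes. In the small lists 2 of 9 and 2 of 13 are above that share, while 1 of 24 is near it. Of 9 KMT2 complex genes 2 fell, Kmt2b and the shared core subunit gene Ash2l (-1.22), whereas Kmt2d (0.25) and Kmt2c (0.27) lay above the non-targeting median; the list median was -0.50. Of 27 polycomb genes 2 fell, Rnf2 and Pcgf6 (-1.27, 6 of 8 guides below), and the list median of -0.16 was near that of all genes. The PRC2 core genes differed: the methyltransferase gene Ezh2 was the highest of the list at 0.46 (9 of 10 guides above) and Eed stood at -0.97 (9 of 9 guides below). Suz12 had a median of -0.09, but its summed reads gave 0.38, with an exact 95% interval of 0.20 to 0.55, so its guides disagreed. Eed and Suz12 were picked after their values were seen.

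Of 13 genes for H3K9 and DNA methylation 2 fell, Cbx3, which codes for HP1 gamma, and the corepressor gene Trim28 (-1.02); the list median was -0.29, with Atf7ip highest at 0.15. Of 23 deacetylase and corepressor genes Hdac3 and Sap18 (-1.25) fell, with a list median of -0.13 and Spen highest at 0.28. Of 24 acetyltransferase and bromodomain genes 1 fell, Kat7 (-1.27), with a list median of -0.32 and Ep400 highest at 0.10. Among 17 SWI/SNF genes Smarcc1 fell (-1.18, 10 of 10 guides below), with a list median of -0.01 and Dpf2 highest at 0.32. Of 23 ISWI, CHD, NuRD and INO80 genes 2 fell, Ruvbl2 and the ISWI ATPase gene Smarca5 (-1.10), with a list median of -0.19 and Mta1 highest at 0.11. None of 13 histone demethylase genes fell, beside 3.57% of all genes. Their list median was -0.26, from Kdm2a at -0.52 to Kdm5b at 0.45. In the list of Ctcf, Ctcfl and Yy1 the insulator gene Ctcf fell (-1.06, 10 of 10 guides below, or -0.27 from the 3 guides with 100 or more reads in both plasmid libraries), while Yy1 stood at -0.18 and Ctcfl at -0.12. The minimum of 100 plasmid reads also took Ash2l to -0.75, Kat7 to -0.59 and Trim28 to -0.67, and summed CPM took Pcgf6 to -0.75.

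Of the lists of sequence-specific factors, Max was the single member of 12 in the MYC/MAX network that fell, with a list median of -0.22 and Mxd1 highest at 0.29. Myc stood at -0.34 and Mycn at -0.55. Nfya of the CCAAT-binding factor NF-Y fell (-1.27, SD 0.39, 6 of 6 guides below), while Nfyb stood at -0.49 and Nfyc at 0.10. In the BTB zinc-finger list, which leaves out the 3 genes the study examined, 1 of 34 genes fell, Zbtb17, which codes for the MYC partner MIZ1 (-1.25, or -0.74 from 1 guide with a minimum of 100 plasmid reads), with a list median of -0.14 and Zbtb48 highest at 0.30. Of 16 E2F, DP, pocket and DREAM genes none fell, with a list median of -0.18, from Rbbp4 at -0.51 to Rbl2 at 0.09. None of 3 genes for mitochondrial gene control fell, with a list median of -0.55, Nrf1 (-0.65) lowest and Gabpa (-0.09) highest. From the plasmid pool to day 5 the median of these 3 was -1.58, against -0.40 for all genes. As 3.57% of all genes fell, 1 of 34 and none of 16 or of 3 lie near that share.

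Zbtb11, Zfp131 and Zbtb10 are BTB zinc-finger genes that the study itself went on to examine, so their direction is not independent evidence. Zbtb11 fell: its 8 guides, all below, had 213 reads at day 5 and 83 at day 8 (66 at day 12), with a relative log2 change of -1.20 (SD 0.99). Zfp131 (328 reads at day 5 and 278 at day 8) changed by -0.57 (SD 0.63) and Zbtb10 (389 and 291 reads) by -0.62 (SD 0.65), neither past 2-fold. The exact 95% intervals of the summed reads were -1.89 to -1.13 for Zbtb11, -0.62 to -0.15 for Zfp131 and -0.79 to -0.34 for Zbtb10. These intervals cover counting error only, and the difference between the genes was not tested.

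Of 18 core and naive pluripotency genes 1 fell, Pou5f1, and 16 were below the non-targeting median, with a list median of -0.19. Over all genes 3.57% fell and 76.8% were below it. Stat3 (-0.97), Klf2 (-0.95, 7 of 7 guides below) and Nr0b1 (-0.92) lay just short of 2-fold. All of these were picked after their values were seen. Nanog changed by -0.71 (SD 1.03, 9 of 10 guides below; 265 reads at day 5 and 178 at day 8). Sox2 changed by -0.10 (SD 0.43), and its summed reads, 309 and 300, gave an interval of -0.42 to 0.05. The highest was Prdm14 at 0.17. Of 16 genes for exit from naive pluripotency none fell, with a list median of -0.14 and Rbpj highest at 0.14.

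No gene rose by 2-fold, and the highest medians were small and even over guides. Guides to Rarg had 858 reads at day 5 and 1530 at day 8, and 2510 at day 12. The relative log2 change was 0.74 (SD 0.36, 9 of 9 guides above), or 1.67-fold, and the summed reads gave 0.69 with an exact 95% interval of 0.57 to 0.81. Guide 2 went from 64 reads to 174 and guide 4 from 33 to 78, while guide 3 (149 to 179) and guide 5 (161 to 220) gained least. The other retinoic acid receptor genes stayed near the controls, Rara at -0.02 and Rarb at 0.06, both picked after their values were seen.

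The next highest were Ints12, an Integrator subunit gene, at 0.59 (SD 0.30, 9 of 9 guides above), and Srsf6 at 0.58 (SD 0.14, 8 of 8). Ints12 had 909 reads at day 5 and 1489 at day 8, and Srsf6 had 1009 and 1601. Ncoa3, a nuclear receptor coactivator gene, followed at 0.53 (9 of 10 guides above; 483 and 767 reads), and it was the highest of 11 coactivator genes with a list median of 0.07. Kdm5b, a demethylase gene for H3 lysine 4, stood at 0.45 with 10 of 10 guides above, on 1032 and 1602 reads. The p53 tumour suppressor gene Trp53 had the most reads, 3521 at day 5 and 4320 at day 8, yet a relative log2 change of only 0.16 (SD 0.16, 9 guides). Trp63 (0.07) and Trp73 (-0.16) lay about as close to the controls.

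The lineage lists gave the change of genes that ES cells mostly do not use. Of 37 Hox genes none fell or rose, and their list median was -0.08, from Hoxd10 at -0.39 to Hoxd3 at 0.15. Over all genes 3.57% fell and 0% rose, so none among 37 says little about Hox genes. The 35 neural factors had a list median of -0.10, from Isl1 at -0.36 to Sox1 at 0.38, and the 40 blood, muscle and endoderm factors one of -0.03, from Foxa3 at -0.63 to Foxp3 at 0.31. These medians were above the median of all genes, -0.13, and below that of the non-targeting guides, which is 0 on this scale. Against the median of guides to genes as the reference, the list medians turned positive: 0.06 for Hox cluster genes, 0.05 for neural lineage factors and 0.11 for blood, muscle and endoderm lineage factors. The same held for SWI/SNF subunits (0.13) and for histone deacetylases and corepressors (0.01), while nuclear receptor coactivators stood at -0.01 with summed CPM.

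Set beside the other intervals, the middle interval had fewer losses than the first and more than the last. By the same rule 220 genes (13.1%) were lower and 1 (0.0595%) higher from the plasmid pool to day 5, and 11 (0.654%) lower and 5 (0.297%) higher from day 8 to day 12. By their names the intervals differ in length, and the first also spans transduction. The SD over non-targeting guides was 0.56 in the first interval, 0.37 in the middle and 0.40 in the last. The same 2-fold line is thus not equally strict in each. Adjacent intervals share a library, so a low value at day 5 or day 8 moves both in opposite directions, and their values are only set side by side. The 60 genes that fell had median relative log2 changes of -1.45, -1.21 and -0.25 in the first, middle and last interval. The median of their summed reads went from 265 at day 5 to 131 and then 95.5. Of these genes 21 had fewer than 100 reads left at day 8, which limits how far a later loss can be seen.

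The 60 genes differed in when most of their loss lay. For 48 of them the first interval was past 2-fold too, as with Smarca5 (-2.95, then -1.10 and -0.41) and Polr2c (-2.69, then -1.20 and 0.12). For the other 12 the first interval was within 2-fold: Xrcc3, Hdac3, Rnf2, Mms19, Mcm9, Ankrd49, Nsmce3, Nelfcd, Dr1, Ddx5, Bard1 and Atm. Hdac3 changed by -0.82, -1.46 and -0.36 in turn, Mms19 by -0.83, -1.32 and 0.12, and Xrcc3 by -0.92, -1.61 and -0.87. Guides to Ankrd49 had 776 reads at day 5, the most of the 60 genes, then 378 and 231. Its change was -1.23 with an SD of 1.36, since guide 5 went from 90 reads to 7 while guide 8 went from 42 to 53. In 4 genes the last interval was past 2-fold as well: Ttf2 (-1.92), Kat7 (-1.39), Smarcc1 (-1.26) and Sfpq (-1.05).

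The comparison of day 12 with the plasmid pool shares no library with that of day 8 and day 5. It follows the same screen and spans the middle interval, so a loss there is part of it. In it 447 genes (26.6%) were lower by 2-fold or more, and 8 (0.476%) higher. All 60 genes that fell in the middle interval were among the 447, which is 100% of the 60 and 13.4% of the 447. As 48 of the 60 were past 2-fold in the first interval already, this overlap was close to fixed and is not independent support. The 8 genes higher at day 12 showed small changes in the middle interval, from 0.16 for Trp53 to 0.59 for Ints12. Kdm5b moved by 0.09, 0.45 and 1.19 in the first, middle and last interval, Srsf6 by 0.03, 0.58 and 1.04, and Ncoa3 by -0.68, 0.53 and 1.19. Kmt2d moved by -0.58, 0.25 and 1.59, and Prdm14 by -0.31, 0.17 and 1.12. Trp53 ran the other way, with 1.78 in the first interval, 0.16 in the middle and -0.48 in the last.

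Guides of the 60 genes had fewer reads than control guides, with medians of 26 at day 5 and 11 at day 8 against 70 and 76. Counting error at that depth gives a median SD of 0.52, against 0.24 for the controls. Of their 505 guides 312 (61.8%) were past 2-fold and 86 (17.0%) lay within 0.5 of the non-targeting median. These genes were called by the same guides, so large shares past 2-fold and below the non-targeting median follow from that choice. In 37 genes all guides were below that median, in 19 all but 1, and in 4 fewer: Snapc5, Pcgf6, Gtf3c3 and Taf5. The median SD over guides was 0.83 in these genes and 0.41 in all genes. Guides ending in C had a median relative log2 change of -0.78 (80 guides), against -1.44 for those ending in A (127), -1.21 in G (228) and -1.28 in T (70). Among non-targeting guides the medians by last base lay between -0.03 and 0.04. Guides of the 60 genes with 9 to 10 G or C bases (-1.32, 161 guides) and with 11 to 12 (-1.29, 184 guides) were lower than those with up to 8 (-1.08, 102 guides) or 13 to 14 (-1.11, 53 guides), and the 5 guides with 15 or more stood at 0.01. These are descriptions of guides that share genes and libraries.

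Guides of a gene that overlap in sequence differed by about as much as others. In the 60 genes 128 pairs of guides of a gene shared 10 or more bases at their ends, with a median of 15, and differed by a median of 0.76 on the log2 scale. The 1809 other pairs differed by 0.85. Over all genes both kinds of pair differed by 0.40. Keeping only the first guide of each overlapping set gave 67 genes that fell, 53 of the 60 among them; this setting was chosen after seeing the data.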

How the data were processed

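Each file holds raw read counts per guide, as deposited: per the file headers the column is named counts, and the values are whole numbers. Per the submitters' processing notes cutadapt, Bowtie, featureCounts and mm10 were named, without versions. The mismatches allowed in matching guides are not given in the labels. Gene names were matched to a RefSeq table of GRCm38.p6, the same build, 1661 by symbol and 21 by an older name, and positions are from it. Guides with 30 or more reads in both plasmid libraries were kept. Counts were divided by the library total and a pseudocount of 1 CPM was added (Python 3.11.15, pandas 2.3.3). A gene's value is the median over its guides minus the median of the non-targeting guides. No test was run; the procedure was tested on simulated counts.

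Intervals for summed reads are exact at 95% (scipy 1.17.1), scaled to the summed non-targeting reads, and cover counting error only; reads are not separate cells. Genes named in the text comprised up to 12 that fell and 10 that rose by 2-fold, with 6 or more guides, 100 or more reads and 80% of guides on that side, a short fixed set, and the called, lowest and highest members of 32 lists; any other gene named was picked after its values were seen. Values of some genes that the rule covers are not reported here. The members and lists were chosen with earlier results of these data known. Alternatives changed the scaling (TMM of edgeR 4.0.16, DESeq2 1.42.0 size factors), pseudocount, filter, summary, GC, reference and fold.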

Additional observations from a re-analysis of the deposited data

How the results depend on the processing

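The count of genes lower at day 8 than at day 5, 60, lay between 40 and 77 in the settings not listed next: 40 against the median of guides to genes and 77 with the mean over guides. It was 26 with a pseudocount of 5, 192 at 1.5-fold and 8 at 3-fold. The count of genes that rose, 0, was 2 at 1.5-fold and 1 with a minimum of 100 plasmid reads, a gene with 1 guide left. That minimum kept 4452 guides, under which 31 of the 54 of these genes it could measure were past 2-fold, and with 1 guide left the median of Ruvbl2 stood at 0.0019. The median of non-targeting guides, 0.11, was 0.14 with TMM factors, -0.00796 with non-targeting reads as the total, 0.10 with a pseudocount of 5 and 0.10 with the higher minimum. Without plasmid replicate 1 or 2 in the filter, 60 and 58 genes fell. The medians of 6 of 32 lists changed sign under some setting. The set with 1 guide of each overlapping set was chosen after seeing the data. No paired analysis was possible because the groups compared hold 1 library each. The cause of these differences was not tested.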
